A study of Mus musculus with 9 samples.

Results

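The 6 genes described here belong to the mitochondrial calcium uniporter and its surroundings: Mcu, Mcub, Micu2, Micu3, Mcur1 and Letm1. They were picked by symbol out of 55471 Ensembl genes in a table of read counts, and each symbol matched a single gene ID. The counts come from the gastrocnemius, a calf muscle, of newborn mice at postnatal day 0 to 1, all labelled C57BL/6. By the methods, the knockouts came from heterozygous C57BL/6JRj matings. The knockout group was 5 Shank3Δ11(-/-) mice (KO1 to KO5), homozygous for a Shank3 allele that lacks exon 11, and the control group was 4 Shank3(+/+) mice (WT1 to WT4). Each library is 1 mouse, and the labels name no treatment. The study asked how loss of Shank3 changes gene expression in neonatal muscle, with calcium handling as a main interest, and it left out KO2 and KO4 for too few reads. The comparison below therefore sets KO1, KO3 and KO5 against the 4 Shank3(+/+) mice, and the level of each of the 6 genes in KO2 and KO4 is given beside it.

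The uniporter is the channel of the inner mitochondrial membrane that lets calcium into the matrix. Its pore is built from Mcu. Mcub is a paralogue that enters the same ring and lowers its conductance, so that the proportion of Mcub to Mcu is a known way to set uptake. Micu2 and Micu3 are EF-hand proteins of the intermembrane space that keep the pore shut at resting calcium or raise its opening when calcium rises. Mcur1 is an inner membrane protein that binds Mcu and promotes assembly of the complex, and Letm1 is an inner membrane protein of cation and proton exchange. In skeletal muscle, calcium released from the sarcoplasmic reticulum enters mitochondria through this channel and activates matrix dehydrogenases.

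The library totals ranged from 26444372 to 40471957 counts, with KO5 lowest and KO4 highest. KO2, at 28211941, was also above KO5. The deposited totals thus do not show the low read numbers for which the study left out KO2 and KO4. KO4, which the study excluded, stood apart in summed CPM (the read count of a gene scaled to a common library size) of cartilage and bone markers (Col2a1, Acan, Ibsp), at 248 against 28.5 to 118 in the other mice. KO5, which the study kept, stood apart in adipocyte markers (Adipoq, Plin1, Cfd, Cidec, Fabp4, Pparg), at 1142 against 189 to 409. It also stood apart in another set of cell markers, not reported here. KO1, also kept, stood apart in erythroid markers (Hba-a1, Hbb-bs, Alas2), at 3366 against 701 to 1286. The summed level of 8 muscle fibre markers (Acta1, Ckm, Ttn, Myh3, Myh8, Tnnt3, Des, Casq1) lay between 53654 and 61294 CPM in all 9 mice. Within that sum KO5 had the lowest Myh3 (embryonic myosin), at 2095 CPM against 4174 to 5787, and the highest Myh8 (perinatal myosin). By Xist the mice fell into 4 with over 100 CPM (WT3, WT4, KO3 and KO5) and 5 with no more than 3.23 CPM. Shank3 itself (chromosome 15 from 89499623 to 89560261) averaged 31.6 CPM (SD 2.58, n = 3) in knockouts and 34.2 CPM (SD 2.90, n = 4) in controls, with 25.8 CPM in KO2 and 35.1 in KO4. Since reads of all its exons were summed, this value cannot serve as a check of the deleted exon.

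Promoter sequence is shown for Mcu, Micu2 and Mcub, the genes whose levels the results turn on: Mcu and Micu2 were counted at nearly equal CPM and Mcub near 1 CPM. Each line gives the 250 bases before the RefSeq start site on GRCm38.p6, 5′ to 3′ on the strand of the gene, and all of them lie on the minus strand. Capitals mark the CCAAT box (CCAAT, or ATTGG on the other strand) and the GC box (GGGCGG, or CCGCCC on the other strand).
Mcu, chr10:59616693-59616942: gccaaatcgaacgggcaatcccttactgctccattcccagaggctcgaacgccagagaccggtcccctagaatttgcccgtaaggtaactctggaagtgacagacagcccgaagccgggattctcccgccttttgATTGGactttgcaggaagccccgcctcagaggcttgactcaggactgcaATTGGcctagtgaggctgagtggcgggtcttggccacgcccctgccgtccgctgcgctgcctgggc
Micu2, chr14:57999263-57999512: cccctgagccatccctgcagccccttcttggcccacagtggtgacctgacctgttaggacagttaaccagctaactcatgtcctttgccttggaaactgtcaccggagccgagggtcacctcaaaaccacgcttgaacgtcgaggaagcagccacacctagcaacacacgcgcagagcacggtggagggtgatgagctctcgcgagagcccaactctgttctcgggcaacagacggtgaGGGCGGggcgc
Mcub, chr3:129970207-129970456: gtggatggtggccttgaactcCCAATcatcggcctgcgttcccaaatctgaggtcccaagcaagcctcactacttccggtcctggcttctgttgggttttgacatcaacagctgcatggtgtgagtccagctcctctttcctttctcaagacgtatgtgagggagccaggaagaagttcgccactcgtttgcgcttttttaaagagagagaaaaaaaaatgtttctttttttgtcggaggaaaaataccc
The Mcu window held 15 CpG dinucleotides and the Micu2 window 14, and the Mcub window held 8, where the median over 32851 RefSeq promoter windows of this length was 6 and the quartiles were 2 and 16. GC content was 60.8% for Mcu, 60.4% for Micu2 and 48.0% for Mcub. Mcu had 2 CCAAT boxes and Mcub 1, a motif found in 33.8% of all windows, and Micu2 had 1 GC box, found in 32.7%. None of these 3 windows held TATAAA, which 12.4% of all windows contain. RefSeq entries were found for 5 of the 6 genes. Of the others, Mcur1 had 21 CpG dinucleotides with 1 GC box, and Letm1 had 17 with 3 GC boxes and 1 CCAAT box.

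Levels compared between genes are given per exon length, as RPKM, the CPM of a gene divided by its kilobases of exon, with the exons of all annotated transcripts merged. Micu2 was highest at 35.3 ± 2.59 RPKM (SD over the 9 mice), and 6.71% of 15121 protein-coding genes tested lay above it. Mcu followed at 15.1 ± 0.859 RPKM, with 16.8% of genes above. Micu2 exceeded Mcu in 9 of 9 mice, with a ratio of means of 2.34. Mcur1 was at 4.92 ± 0.383 RPKM and Letm1 at 4.12 ± 0.336 RPKM, and Mcur1 was the higher of these neighbours in 8 of 9 mice with ranges that overlapped. Micu3 was at 1.54 ± 0.269 RPKM and Mcub at 0.809 ± 0.411 RPKM, with 71.9% and 81.3% of genes above. Micu3 exceeded Mcub in 8 of 9 mice, and the exception was KO4. In a bulk sample these levels mix all cells of the tissue, and fewer cells of a type cannot be told apart from less RNA per cell.

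**Figure D1:**
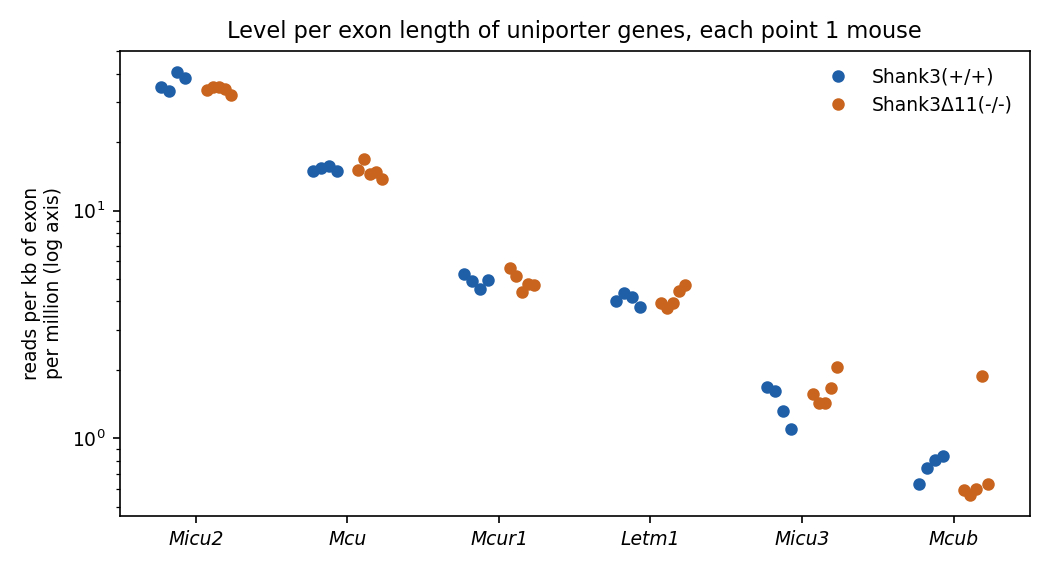
Level of each gene in RPKM, on a log axis, with each point 1 mouse, blue for Shank3(+/+) and orange for Shank3Δ11(-/-). The genes fall into an order from Micu2 at 35.3 to Mcub at 0.809 on average, and the genotypes lie on top of each other within each gene apart from 1 high Mcub value in KO4.

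All 6 genes passed the filter on low counts, both in the 7 mice and in the 9. None of the 6 was called different between genotypes at p below 0.05 with a false discovery rate (FDR) below 25%, the study's criterion, in edgeR's quasi-likelihood test. In that comparison 0 of 21809 genes were called, 0% of those tested. At an unadjusted p below 0.05, 0 of the 6 passed, where 453 genes or 2.08% did (1.16% higher and 0.917% lower in Shank3Δ11(-/-)). For 0 of the 6 were the 3 Shank3Δ11(-/-) mice and the 4 Shank3(+/+) mice free of overlap in CPM, where 2.84% of all genes were (1.54% with the knockouts above and 1.3% below). With KO2 and KO4 included 0 of the 6 passed by any of these rules, against 0%, 2.03% (1.16% higher, 0.874% lower) and 0.686% (0.322% above, 0.363% below) of 21735 genes. DESeq2 called 6 genes in the 7 mice, and none of them was among the 6 described here. The paper, with limma, reported many differentially expressed genes at this criterion, so the 0 belongs to the present fit. On the deposited counts, limma-voom and limma-trend after quantile normalization also called 0 of 21809 genes. The reason for the difference from the paper was not tested. The smallest p that the exact permutation test allows is 0.0286 for 3 against 4 mice and 0.00794 for 5 against 4.

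The pore gene Mcu (ENSMUSG00000009647, chromosome 10 from 59446984 to 59616692) was counted at 104 CPM (KO1), 100.2 (KO3) and 95.4 (KO5) in the knockouts. The controls had 104 CPM in WT1, 107 in WT2, 109 in WT3 and 104 in WT4. KO1 lay inside the range of the controls, and KO3 and KO5 lay below it. The means were 99.9995 ± 4.52 CPM (SD, n = 3) and 106 ± 2.75 CPM (SD, n = 4), a log2 fold change of -0.09 (standard error 0.09, 95% interval -0.29 to 0.11, edgeR p = 0.331 with FDR = 1.00, p = 0.114 by exact permutation). As a change in level that interval runs from -18.3% to 7.74%. KO2 had the highest Mcu of all 9 mice at 117 CPM and KO4 had 103 CPM, and with both included the log2 fold change was -0.03 (exact permutation test p = 0.587).

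The gatekeeper Micu2 (ENSMUSG00000021973, chromosome 14 from 57916261 to 57999262) was counted at 105 CPM in KO1, 108 in KO3 and 99.5 in KO5. WT1 had 107 CPM, WT2 103, WT3 125 and WT4 118. WT3 and WT4 were above every Shank3Δ11(-/-) mouse, while WT1 and WT2 lay among them. The log2 fold change was -0.14 (standard error 0.10, 95% interval -0.36 to 0.09, edgeR p = 0.219 with FDR = 1.00, p = 0.257 by exact permutation). Without WT3 it was -0.08. KO2 and KO4 were at 108 and 106 CPM, so all 5 Shank3Δ11(-/-) mice lay under the Shank3(+/+) mean of 114 CPM, and the log2 fold change over the 9 mice was -0.11 (exact permutation test p = 0.159).

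Micu3 (ENSMUSG00000039478, chromosome 8 from 40307458 to 40386308), the MICU family member known mainly from nervous tissue, was counted at 9.62 CPM in KO1, 8.85 in KO3 and 12.7 in KO5. WT1 had 10.3 CPM, WT2 9.96, WT3 8.13 and WT4 6.74. KO5 was highest and WT4 lowest, and the other mice of both genotypes overlapped. The log2 fold change was 0.23 (standard error 0.19, 95% interval -0.18 to 0.65, edgeR p = 0.244 with FDR = 1.00, p = 0.343 by exact permutation). It was 0.06 without KO5, 0.13 without WT4 and 0.34 without KO3. With mice sharing a number blocked in the 7-mouse fit it was 0.00. In the 7 mice only KO1 with WT1 and KO3 with WT3 share a number. KO5, WT2 and WT4 therefore did not inform the genotype effect of that blocked fit. KO5 is the mouse with the high adipocyte marker sum, and its part in the Micu3 level, like that of the Myh3 and Myh8 levels, was not tested. KO2 and KO4 had 8.83 and 10.3 CPM, and all 5 Shank3Δ11(-/-) mice lay above the Shank3(+/+) mean of 8.79 CPM (log2 fold change 0.19, exact permutation test p = 0.294). Micu3 shares 202 exonic bases with Fgf20 on the opposite strand, and Fgf20 itself had at most 3 counts in a mouse.

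Mcub (ENSMUSG00000027994, chromosome 3 from 129914960 to 129970206), the paralogue that dampens the pore, was close to the limit of what these libraries count. It had 25 counts in KO1, 25 in KO3 and 22 in KO5, or 0.783, 0.787 and 0.836 CPM. WT1 had 27 counts, WT2 33, WT3 31 and WT4 34, or 0.832, 0.976, 1.06 and 1.11 CPM. KO5 and WT1 were nearly equal, and apart from that contact the 3 Shank3Δ11(-/-) mice lay below the 4 controls. The log2 fold change was -0.32 (standard error 0.25, 95% interval -0.87 to 0.24, edgeR p = 0.234 with FDR = 1.00, p = 0.0857 by exact permutation).

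The excluded mice took opposite ends of the Mcub range. KO2 was lowest with 22 counts and 0.748 CPM. KO4 was highest with 94 counts and 2.47 CPM, and its 95% exact Poisson interval, 2.00 to 3.02 CPM, lay above the intervals of the other 8 mice, the highest of which ended at 1.55 CPM in WT4. These intervals cover counting error only. Over the 9 mice Mcub had a coefficient of variation of 50.8%. Over the 8 mice without KO4 it was 15.4%, less than the 19.4% that counting error alone gives at these depths. With KO2 and KO4 included the log2 fold change turned positive, to 0.20 (exact permutation test p = 0.992), and with KO2 alone added it was negative.

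KO4 differed in other respects from the other mice. The share of its counts on mitochondrial genes was the highest, at 7.88% against 3.81% to 6.54%. Of the cartilage and bone markers, Col2a1 and Acan were highest in KO4, and Ibsp was highest in KO1 (60.5 CPM, with 56.3 in KO4). KO4 had the highest sum of 4 fibroblast markers (Pdgfra, Col1a1, Dcn, Lum), at 14167 CPM against 5873 to 10997 in the others. Col1a1 made up 12987 CPM of that sum, Lum was at 298 CPM against 102 to 178 in the others, Dcn was nearly level with KO5 (760.5 and 754.9 CPM), and Pdgfra, at 121 CPM in KO4, was within the range of the other mice (90.2 to 150.1 CPM). Its sum of 3 leukocyte markers (Ptprc, Adgre1, C1qa) was also highest, at 44.0 against 25.8 to 38.7 CPM, and so was that of 3 endothelial markers (Pecam1, Cdh5, Kdr), at 647 against 454 to 601 CPM. The part of these cells, and of the mitochondrial share, in the Mcub level of KO4 was not tested.

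**Figure D2:**
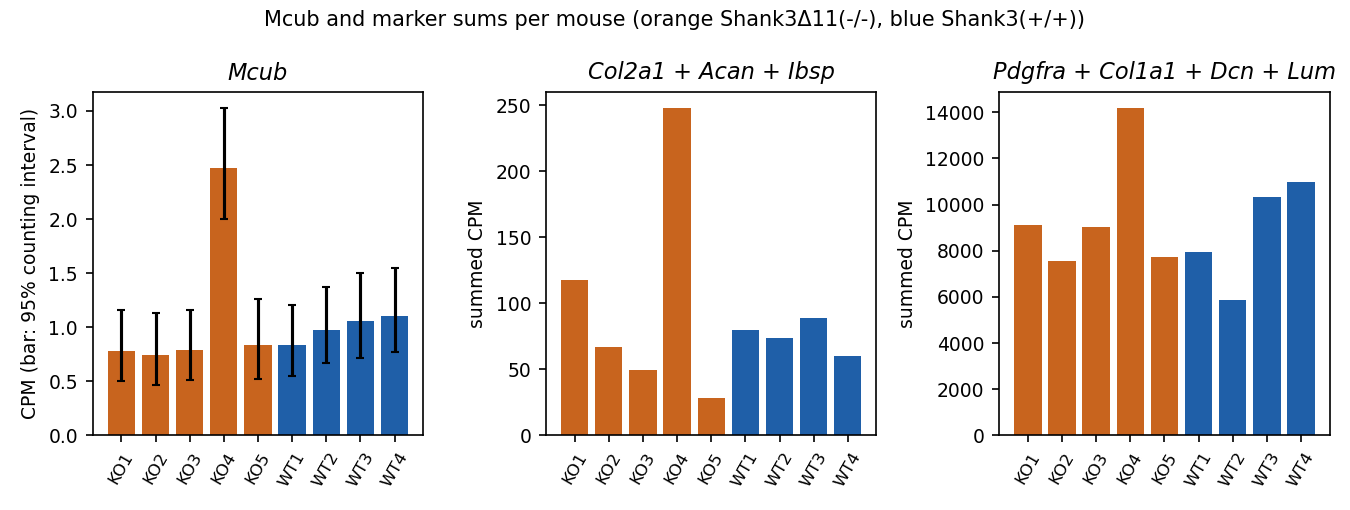
CPM of Mcub with 95% counting intervals, and the summed CPM of cartilage and bone markers and of fibroblast markers, in each of the 9 mice, orange for Shank3Δ11(-/-) and blue for Shank3(+/+). KO4 is the highest mouse in all 3 panels, at 2.47, 248 and 14167 CPM.

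Mcur1 and Letm1 had the log2 fold changes nearest to 0 in the 7 mice, an order that does not hold in every alternative fit. Mcur1 (ENSMUSG00000021371, chromosome 13 from 43538393 to 43560191) was at 39.6 CPM in KO1, 30.9 in KO3 and 33.4 in KO5, against 37.3 in WT1, 34.6 in WT2, 31.9 in WT3 and 35.2 in WT4. The Shank3Δ11(-/-) mice held both the highest and the lowest value. The means were 34.6 ± 4.49 CPM (SD, n = 3) and 34.8 ± 2.24 CPM (SD, n = 4), a log2 fold change of -0.01 (95% interval -0.27 to 0.24, p = 0.913 from edgeR, exact permutation test p = 0.971). KO2 and KO4 had 36.4 and 33.9 CPM. Without KO1, the highest of the mice and the one with the high erythroid sum, the log2 fold change was -0.12, and the part of that sum was not tested.

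Letm1 (ENSMUSG00000005299, chromosome 5 from 33739673 to 33782817) was at 37.9 CPM in KO1, 37.8 in KO3 and 45.7 in KO5, against 38.6 in WT1, 42.1 in WT2, 40.4 in WT3 and 36.6 in WT4. KO5 was above every control, and KO1 and KO3 lay within their range. The log2 fold change was 0.03 (95% interval -0.22 to 0.28, p = 0.797 from edgeR, exact permutation test p = 0.771), and it was -0.07 without KO5. KO2 had the lowest value of the 9 mice at 36.1 CPM and KO4 had 43.0 CPM.

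**Figure D3:**
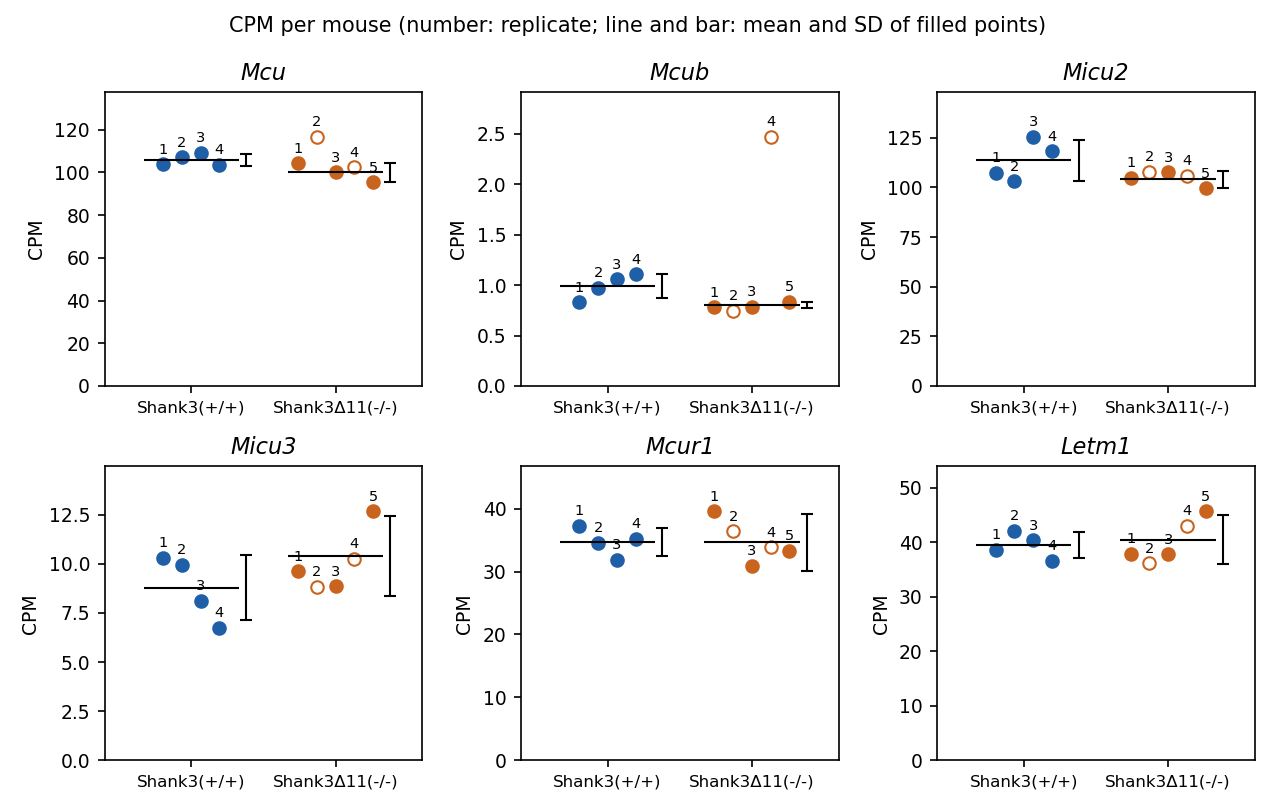
CPM of each gene in every mouse, with the axis starting at 0, the replicate number above each point, and open points for KO2 and KO4. Lines and bars give the mean and SD of the filled points, and the groups overlap for all 6 genes.

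Across the 6 genes the intervals differed in what they allow. For Mcu, Micu2, Mcur1 and Letm1 the 95% intervals of the 3 against 4 mice stayed between -22.3% and 21.1%. For Micu3 the interval reached 56.7%, and for Mcub it began at -45.3%. A 2-fold change of any of the 6 lay outside its interval in the 7 mice, and with all 9 mice the upper bound for Mcub was 1.00 on the log2 scale.

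**Figure D4:**
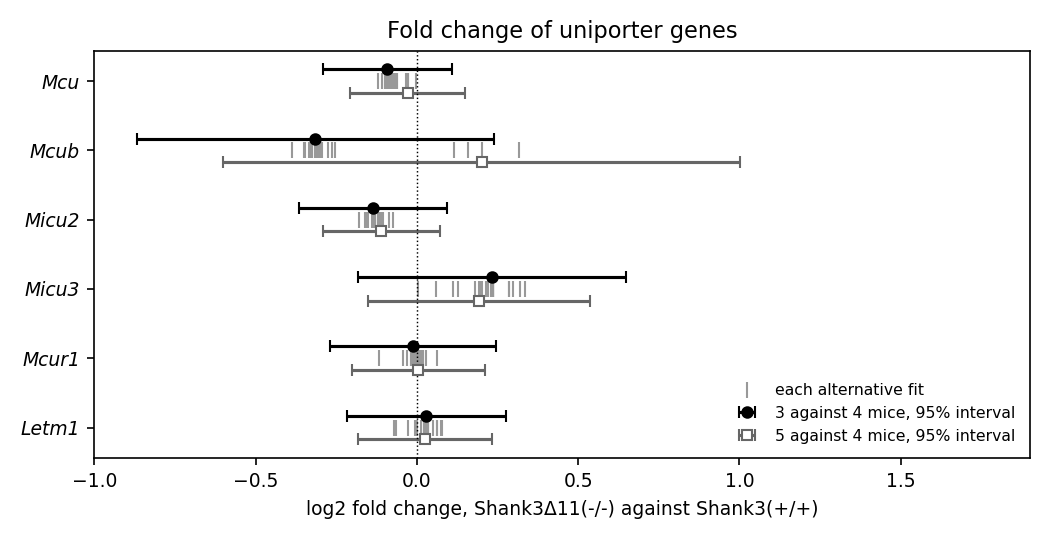
Log2 fold change of each gene in Shank3Δ11(-/-) against Shank3(+/+), with 95% intervals from edgeR for 3 against 4 mice (filled circles) and 5 against 4 (open squares), and a tick for each alternative fit. All intervals include 0, and Mcub is the gene whose estimate moves most, from -0.32 to 0.20 when KO2 and KO4 are added.

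Proportions between the genes were taken within each mouse. Per exon length, Mcub amounted to 4.61% of Mcu at the median, from 3.37% in KO2 to 12.7% in KO4. The counts themselves, not divided by length, gave 0.876%, 0.641% and 2.41%. In log2 of CPM with a prior count of 2, the ratio averaged -6.85 (SD 0.11, n = 3) for the knockouts and -6.66 (SD 0.16, n = 4) for the controls, a difference of -0.20 (exact permutation test, 2-sided, p = 0.114). With KO2 and KO4 the difference was 0.04 (exact p = 0.992). Micu2 lay between 208% and 258% of Mcu per exon length, lowest in KO2 and highest in WT3. Micu3 amounted to 2.86% of Micu2 in WT4 and 6.39% in KO5 per exon length. The difference in its log2 ratio between genotypes was 0.37 (exact p = 0.286), and it was 0.18 without KO5, 0.23 without WT4 and 0.31 with KO2 and KO4 included (exact p = 0.230). On the same scale Mcur1 lay between 28.6% and 37.2% of Mcu. Letm1 lay between 22.2% and 34.4% of Mcu, lowest in KO2 and highest in KO5. Of the 5 ratios compared, 0 separated the genotypes, and 0 had an exact p below 0.05 in the 7 or the 9 mice (adjusted p of at least 0.571).

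Mcu was among the steadier genes of this muscle. Its coefficient of variation over the 9 mice was 5.69%, against 1.75% from counting error, and 7.10% of 1591 protein-coding genes within 1.5 times its level varied less. Micu2, Mcur1 and Letm1 varied by 7.34%, 7.79% and 8.14%, below the medians of 10.7%, 11.3% and 11.2% for genes of like level. Micu3 varied by 17.5%, against 5.89% from counting error and a median of 14.9% among genes of like level, and by 13.5% without KO5. KO5 was the most extreme mouse for these genes: it had the lowest Mcu and Micu2 and the highest Micu3 and Letm1 of the 9. No other mouse was highest or lowest in more than 3 of the 6.

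Among the 15 pairs of genes, the gatekeepers stood in the most opposed relation. Over the 9 mice, log2 CPM of Micu2 and Micu3 had Pearson's r = -0.81 (exact permutation test p = 0.00840, adjusted over the 15 pairs p = 0.126) and Spearman's rho = -0.83 (exact p = 0.00827, adjusted p = 0.124). Without WT3 and WT4, the mice farthest from the median of Micu2, r was -0.85. That check kept KO5, which had the lowest Micu2 and the highest Micu3, and r without KO5 was not computed. Micu3 and Letm1 rose and fell together with r = 0.73 (exact p = 0.0213, adjusted p = 0.160) and rho = 0.72 (exact p = 0.0369, adjusted p = 0.276), and without KO5 and WT4 r was 0.38, so this relation rests on those mice. Mcu and Micu2 had r = 0.40 (exact p = 0.285) and rho = 0.40 (exact p = 0.291). No pair passed the adjustment. The division by Xist leaves 5 and 4 mice, under the minimum of 6 set for a correlation, and none was computed within either side.

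The gatekeepers were also compared on either side of that division. Among the mice with high Xist, Micu2 was at 118 and 125 CPM in WT4 and WT3 and at 99.5 and 108 CPM in KO5 and KO3. Among the mice with low Xist it was at 103 and 107 CPM in Shank3(+/+) and between 105 and 108 CPM in KO1, KO2 and KO4. Micu3 showed the opposite arrangement, with 6.74 and 8.13 CPM in the high-Xist controls, 8.85 and 12.7 CPM in the high-Xist knockouts, and 8.83 to 10.3 CPM in the 5 mice with low Xist. The difference in genotype effect between the sides was tested in edgeR over all 21735 genes, a test chosen after seeing the data. For Micu3 the difference was 0.62 on the log2 scale and for Micu2 -0.25, both with an FDR of 0.980 from edgeR. The unadjusted edgeR p was 0.0505 for Micu3, just over the threshold of 0.05, and 0.165 for Micu2, and no exact permutation test of this difference was run. At p below 0.05 this test passed 4.08% of all genes and 0 of the 6, so no difference between the sides was shown for these genes.

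The genes whose pattern over the 9 mice was most like each member were searched among 11400 protein-coding genes with a mean of at least 5 CPM, by Pearson's r of log2 CPM, as a description. For Mcu these were Slc38a1 (r = 0.94), Tnfrsf19 (0.93) and Igf2bp1 (0.93). For Micu2 they were Pcdhga5 (0.96), Plxnb2 (0.94) and Ttc21b (0.94). Micu3 was closest to Rnf168 (0.99), B3gat2 (0.97) and Iqck (0.97), and 74 genes had r above 0.9 with it, the most of the 6. Letm1 was closest to Dync1i2 (0.99), Dek (0.99) and Med7 (0.97). Mcur1 followed Adck2 (0.94), Lgmn (0.94) and Ndel1 (0.93), and Mcub followed 1500015O10Rik (0.95), Naalad2 (0.94) and Tctex1d2 (0.93). Without KO4, a check added after seeing the data, these last 3 values were 0.72, 0.82 and 0.68. Each of the 6 had at least 5 genes with r above 0.9 over these 9 mice.

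Genes that work around the uniporter were measured in the same comparison of 3 against 4 mice, and 0 of 60 had an unadjusted p below 0.05 in edgeR, in the 7 mice or in the 9. For 1 of the 60 the groups of the 7 mice did not overlap, beside 2.84% of all genes, and it is described with the matrix enzymes. Of 15 mitochondrial calcium and cation carriers 8 were higher and 7 lower, and the median of their log2 fold changes was 0.01, beside -0.01 over all genes tested. The sodium-calcium exchanger Slc8b1, the main route of calcium out of the matrix, had a mean of 19.3 CPM (SD 2.84, n = 3) against 18.8 CPM (SD 2.13, n = 4) in the controls, and was named after its values were seen. The smallest p in this list belonged to Slc25a25 (log2 fold change 0.49, edgeR p = 0.150, exact permutation p = 0.543) and Slc25a23 (0.16, edgeR p = 0.234, exact p = 0.257), carriers of ATP-magnesium and phosphate with EF-hands. Slc25a25 was at 26.4 CPM in KO5, the mouse with the high adipocyte sum, while KO1 (9.31 CPM) and KO3 (12.0 CPM) lay around the control mean of 11.3 CPM, and the part of that sum was not tested. Of 7 proteases and assembly factors 3 were higher and 4 lower, with a median of -0.03, and the smallest p was that of the matrix chaperone Hspa9 (-0.17, edgeR p = 0.197, exact permutation p = 0.257), followed by the protease subunit Afg3l1 (0.08, edgeR p = 0.498, exact p = 0.343).

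Of 16 matrix enzymes and carriers that respond to calcium or regulate those that do, 8 were higher and 8 lower, with a median of 0.01. Pdk4, a kinase that switches off pyruvate dehydrogenase, had a log2 fold change of 0.53 (p = 0.108 from edgeR, exact permutation test p = 0.314), and Gpd2, a calcium-sensitive glycerophosphate dehydrogenase, 0.32 (edgeR p = 0.159, exact p = 0.429). Pdk4 was at 249.5 CPM in KO1, the mouse with the high erythroid sum, and at 115 and 116 CPM in KO3 and KO5, near the control mean of 109.9 CPM. Gpd2 was at 28.6 CPM in KO5, 22.7 in KO1 and 13.8 in KO3, on both sides of the control mean of 17.3 CPM. With KO2 and KO4 included, the log2 fold change was 0.26 for Pdk4 and 0.26 for Gpd2. Idh3g, a subunit of isocitrate dehydrogenase named after its values were seen, was the gene without overlap, at 144 to 152 CPM in the 3 knockouts and 128 to 140.4 CPM in the controls (log2 fold change 0.12, edgeR p = 0.224, exact permutation p = 0.0286, the smallest possible). KO2, at 132 CPM, lay among the controls, and over the 9 mice the exact permutation p was 0.0873. Of 9 genes of the contacts between reticulum and mitochondria 6 were higher and 3 lower, with a median of 0.03, and the smallest p belonged to the tether Rmdn3 (0.11, edgeR p = 0.387, exact permutation p = 0.286) and the sorting protein Pacs2 (-0.11, edgeR p = 0.541, exact p = 0.657). Of 13 genes of mitochondrial content 3 were higher and 10 lower, with a median of -0.03. Hspd1, the matrix chaperonin, had -0.19 (edgeR p = 0.184, exact permutation p = 0.257), and Ndufs1, a subunit of complex I, -0.14 (edgeR p = 0.282, exact p = 0.429). With KO2 and KO4 included the tallies shifted: 6 carriers were higher and 9 lower (median -0.04), and 3 contact genes were higher and 6 lower (median -0.01). The proteases and assembly factors then had 2 higher and 5 lower (median -0.03), the matrix enzymes 9 and 7 (median 0.02) and the content genes 3 and 10 (median -0.05). Among the 6 uniporter genes themselves 2 were higher and 4 lower with a median of -0.05, and 4 were higher and 2 lower with a median of 0.01 when KO2 and KO4 were included.

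**Figure D5:**
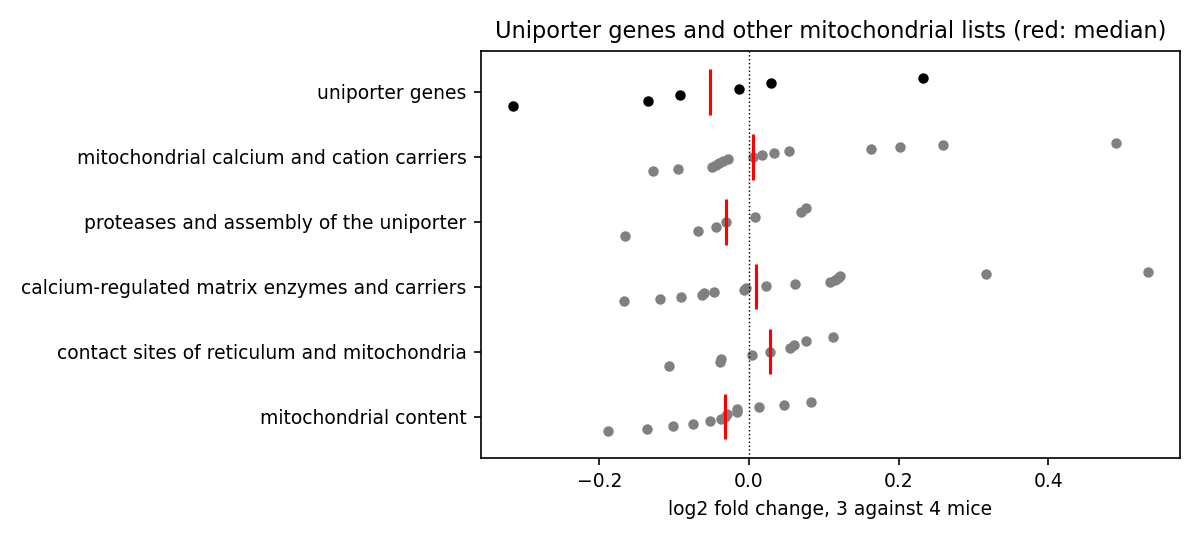
Log2 fold change of single genes, 3 Shank3Δ11(-/-) against 4 Shank3(+/+) mice, for the 6 uniporter genes (black) and 5 lists of other mitochondrial genes (grey), with the median of each list in red. The list medians lie between -0.05 and 0.03.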

How the data were processed

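Total RNA from gastrocnemius was sequenced, 1 library per mouse (5 Shank3Δ11(-/-), 4 Shank3(+/+)). The counts are as deposited: per the methods, the authors mapped reads with HISAT2 to mm10, kept concordant pairs and counted reads per gene with featureCounts, without normalization. Not given in the sources used here: annotation release, strand setting, multi-mapping reads. Symbols and positions came from GENCODE M21 (mm10) for 55230 IDs.

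CPM and log2 CPM (prior count 2) used library sizes scaled by TMM over the 9 mice. Genes were filtered with filterByExpr (minimum count 10, minimum total 15). Fold changes and p-values were computed with edgeR 4.0.16 (R 4.3.3, robust quasi-likelihood test, Benjamini-Hochberg adjustment over all genes tested). Standard errors and 95% intervals were derived from its fold changes and F statistics. A check on simulated data covered only the mean estimated fold change, in genes with higher counts than Mcub. Single genes and ratios also had a 2-sided exact permutation test over all splits of the mice. Alternatives used DESeq2 1.42.0, limma 3.58.1, other filters, scalings, covariates and mice. P-values for genotype set the difference between the groups against the spread between these mice. edgeR estimates that spread with information shared across genes.

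The members and lists were chosen with earlier results of these data known. Text names all 6 members, of each list the genes with an edgeR p below 0.05 or else the 2 of smallest p, and the 3 genes most like each member. Further subunits of the complex are not reported here. Figures used matplotlib 3.10.9.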

Additional observations from a re-analysis of the deposited data

Results flagged for a closer look

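Mcub in KO4 was flagged because that mouse lies far from the other Shank3Δ11(-/-) mice by Dixon's test at the 95% level. Its Mcub level was 2.47 CPM, where KO1, KO2, KO3 and KO5 had 0.748 to 0.836 CPM. The log2 ratio of Mcub to Mcu in KO4, -5.34, was flagged in the same way, since Mcu in KO4 was within the range of the other mice. The test was run on 22 groups of values (6 genes and 5 ratios in each genotype), and chance flags about 1 group in 20. Both flags come from the same 94 counts. KO4 also had the highest marker sums for cartilage and bone, fibroblasts, leukocytes and endothelium, and their part in the Mcub level was not tested.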

How the results depend on the processing

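None of the 6 genes was called in any of the 22 alternative fits, and the lowest FDR of a member was 0.998. Mcu and Micu2 stayed lower and Micu3 higher in Shank3Δ11(-/-) in all of them, with log2 fold changes of -0.12 to -0.00 for Mcu, -0.18 to -0.08 for Micu2 and 0.00 to 0.34 for Micu3. Mcub turned positive wherever KO4 was included: 0.20 in all 9 mice, 0.32 with KO4 added to the 7, 0.12 with the replicate block in the 9 and 0.16 with Y-linked genes as a covariate in the 9. Mcur1 crossed 0 to 0.0037 in the 9 mice, 0.0097 with KO2 added, and 0.019 with Y-linked genes in the 7. Letm1 crossed 0 to -0.0058 with KO2 added. Leaving out 1 mouse at a time moved Mcur1 between -0.12 (without KO1) and 0.062 (without KO3) and Letm1 between -0.070 (without KO5) and 0.077 (without KO1). The log2 ratio of Mcub to Mcu turned to 0.042 in the 9 mice, and that of Letm1 to Mcu ranged from -0.0065 (without KO5) to 0.19 (without KO1) when 1 mouse was left out. The number of genes called over all genes, 0 in the 7 mice, was 1 without the filter, 6 in DESeq2, and 0 to 15 (without KO1) with 1 mouse left out. The number with p below 0.05 was 453, against 745 with KO4 added, 972 without the filter and 224 (without KO5) to 968 (without KO1) with 1 mouse left out, and 794 without KO3. The cause of these shifts was not tested.

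Replicate numbers shared between the genotypes do not pair the mice by any label. Deviations from the group means correlated by 0.37, 0.05, 0.36 and 0.10 between mice of the same number. Between mice of different numbers they correlated by -0.44 (KO3 with WT1) to 0.28 (KO3 with WT4). Xist was low in KO1, WT1, KO2 and WT2, high in KO3 and WT3, and differed between KO4 and WT4. With the replicate block, Mcur1 was 0.018 in the 7 mice and 0.016 in the 9, and Letm1 -0.066 and -0.027. The genes called over all genes were then 9 and 2, with 844 genes at p below 0.05 in the 7. In the 7 mice only KO1 with WT1 and KO3 with WT3 share a number, and KO5 has no partner in the 9 either. The blocked estimates and counts of genes in the 7 mice therefore rest on those pairs alone. Depth limits Mcub most, at 22 to 94 counts per mouse.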
